A study of Mus musculus with 6 samples.

Results

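Spots of the forebrain that combined a GABA-releasing neuron signal with an astrocyte signal of subcortical grey matter were followed across age in coronal mouse brain sections. Spots with at least 500 UMIs (unique molecular identifiers, each standing for 1 captured transcript) were scored in each section by the summed log-scaled UMIs of Syt2, Agt, Slc6a11 and Slc32a1. The 80 highest-scoring spots of each section were taken as members, which gave 480 spots of 16741, and the remaining 16261 spots are called the other spots. The working label for the members was subcortical GABAergic spots of the pallidum, reticular thalamus and zona incerta.

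The sections came from male C57BL/6J mice with no other genotype or treatment in the labels, cut frozen at 16 µm and placed on Visium slides, which capture polyadenylated RNA on a grid of barcoded spots. Mice were 6 months (young), 18 months (middle) or 21 months (old) old, with 2 males per age and 1 section listed under each replicate. Both young sections, middle 1 and old 1 were on slide 1, and middle 2 and old 2 were on slide 2. A Visium spot covers several cells, so a value for the members is a value for mixed tissue.

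The 3 regions in the label are built largely from neurons that release GABA, the main inhibitory transmitter of the forebrain. The globus pallidus receives striatal input and inhibits the basal ganglia output nuclei, the reticular nucleus is a thin shell that inhibits thalamic relay neurons, and the zona incerta is a strip of inhibitory neurons below the thalamus. GABA is made by the decarboxylases Gad1 and Gad2, is loaded into vesicles by Slc32a1, and is taken up again by transporters such as the astrocytic Slc6a11. Syt2 is a fast calcium sensor of vesicle release in fast-firing neurons, and Agt, angiotensinogen, is made in the brain mainly by astrocytes.

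Member sums held 1203971 to 1559565 UMIs per section, and the median UMIs of a member spot ran from 14397 to 18925, against 20644.5 to 30607 in the other spots. The mitochondrially encoded share of member UMIs was 17.2% and 12.1% in young, 14.0% and 12.8% in middle and 11.7% and 11.1% in old sections. For neither this share nor the median UMIs did the difference between ages pass the test in member spots (exact permutation test over 90 assignments, two-sided, p = 0.4 and 0.267, both 0.6 after adjustment over 3 measures, smallest possible p 0.0667). The labels tie each replicate to a male but state no pairing across ages. Counts of the 2 sections of a group differed by more than sampling noise, with chi-square per degree of freedom from 2.59 to 3.99 in member sums. Because barcodes mark slide positions, 1920 of 3389 barcodes recurred in all 6 sections, and 73 barcodes were members in 2 or more sections.

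The 4 genes of the score describe how the members were chosen and carry no test. The last spot taken in and the first left out differed little in score, for example 4.96 and 4.95 in young 1 and 4.97 and 4.92 in old 2, against a median of 1.57 to 1.91 over all spots of a section. Between 50 and 73 of the 80 members of a section held UMIs of all 4 genes, while 5.63% to 11.8% of the other spots did. Here CPM is a gene's UMIs per 1000000 UMIs of the summed spots, scaled with TMM factors shared by all 12 sums. Slc32a1 stood at 493 and 511 CPM in the young, 550.3 and 566 CPM in the middle and 618 and 510.1 CPM in the old sections, and at 92.2 to 137 CPM in the other spots. Syt2 stood at 140.02 and 161 CPM in the young, 185 and 260.2 CPM in the middle and 159 and 247 CPM in the old sections, against 22.8 to 33.6 CPM elsewhere. Both were higher in the member spots of every section, as the rule requires. The glial pair were Agt, with 428 and 319 CPM in the young, 356 and 285 CPM in the middle and 301 and 282 CPM in the old sections, and Slc6a11, with 396 and 374 CPM in the young, 319 and 402 CPM in the middle and 334 and 344 CPM in the old sections.

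Genes that the rule did not name described the same tissue. The following ratios compare member with other spots of the same section and are descriptions only, since the members were picked from these counts. Gad1 stood at 1142 and 1389 CPM in the young, 1434 and 1312 CPM in the middle and 1476 and 1171 CPM in the old sections, 3.57 to 6.10 times the other spots. Gad2 was 2.88 to 5.12 times as high as in the other spots. All 7 genes of a list for GABA handling, among them Gad1, Gad2, Slc32a1, Slc6a11, Abat and Aldh5a1, were above the other spots in every section, 2 of them by the rule. Pvalb, the calcium buffer of fast-spiking inhibitory neurons, stood at 1780.2 and 1487 CPM in the young, 1734 and 1687 CPM in the middle and 2004 and 1397 CPM in the old sections, 5.87 to 9.89 times the other spots.

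By the lowest ratio over sections, the 15 leading genes were Spp1, Six3, Pvalb, Esrrg, Syt2, Agt, Slc32a1, Gm2115, Gad1, Unc13c, Ubash3b, Vamp1, Klhdc8a, Slc6a11 and Lgi2. Spp1, the secreted phosphoprotein osteopontin, was 8.64 to 20.7 times the other spots, and Six3, a homeobox factor of ventral forebrain neurons, was 7.47 to 27.2 times. Esrrg, a nuclear receptor of energy metabolism, was 4.95 to 7.91 times the other spots. Vamp1, the vesicle SNARE protein of fast synapses, was 3.14 to 4.50 times. Its relative Vamp2 was below the other spots, at 0.539 to 0.678 times, so the release machinery was represented unevenly. The same held for complexins, which regulate release, with Cplx1 at 1.56 to 2.02 and Cplx2 at 0.286 to 0.401 times the other spots. The potassium channel gene of fast firing Kcnc1 was 2.09 to 2.79 times the other spots, and Nefh, the heavy neurofilament of large axons, was 2.91 to 4.05 times.

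**Figure D1:**
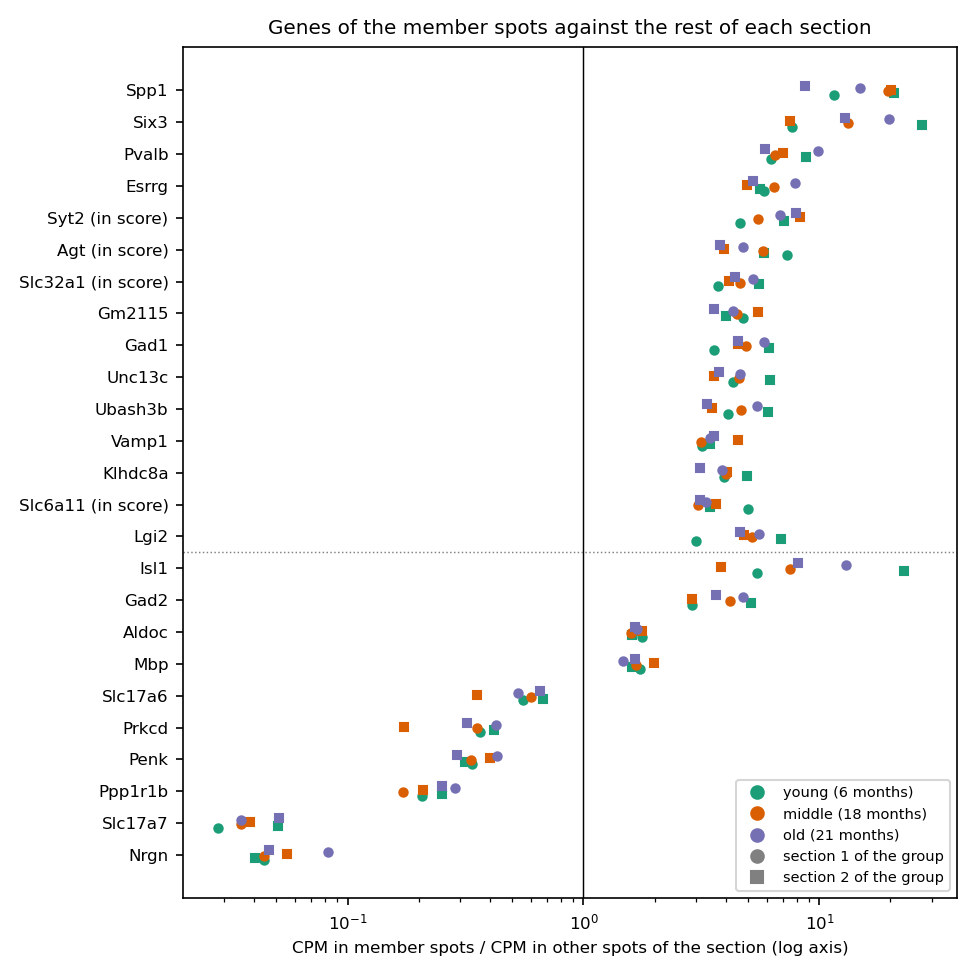
Ratio of CPM in member spots to CPM in the other spots of the same section (log axis) for the 15 leading genes, above the dotted line, and for chosen markers, below it; each point is 1 section, coloured by age. Spp1, Six3 and Pvalb lie farthest to the right in their lowest section, and the excitatory genes Slc17a7 and Nrgn lie below a ratio of 0.1 in all 6 sections.

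Markers of most neighbouring tissue were low, but not those of hypothalamus. The summed level of 6 hypothalamic genes was 1.06 to 2.15 times the other spots, with 2 genes above in every section and 0 below. For 5 lateral hypothalamic genes it was 0.896 to 4.92 times, with 3 above in every section and 0 below. Slc17a7, the vesicular glutamate transporter of cortex and hippocampus, stood at 14.7 to 31.1 CPM in member spots and 519.97 to 616 CPM elsewhere. All 8 striatal genes and all 8 thalamic relay genes were below the other spots in every section, with Ppp1r1b, the striatal phosphatase inhibitor DARPP-32, at 0.172 to 0.285 times and Prkcd, a relay thalamus kinase, at 0.173 to 0.427 times. No member was among the 80 spots that scored highest for relay thalamus, striatum or white matter in its section, and 1 to 9 members per section were among the 80 that scored highest for hypothalamus. The subthalamic genes Barhl1 and Foxa1 were at 0 UMIs in young 1, middle 1 and old 1, and did not exceed 5.52 and 2.17 CPM elsewhere. The cholinergic gene Chat had 0 UMIs in 3 sections and at most 2.04 CPM.

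GABA receptors did not follow the transmitter. Of 19 genes of GABA receptors and their scaffold, 2 were above the other spots in every section and 11 were below. The exceptions were Gabra3, at 1.04 to 1.44 times the other spots, the subunit known from the reticular nucleus, and Gabrg1, at 1.52 to 2.04 times. Gabra3 stood at 68.0 and 73.9 CPM in the young, 62.7 and 56.6 CPM in the middle and 71.7 and 63.1 CPM in the old sections.

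Of the 3 regions in the label, the reticular nucleus and the zona incerta had most of their markers above the other spots throughout. Of the 6 reticular thalamus genes, Six3, Isl1, Ecel1 and Spp1 were above the other spots in every section, and Isl1, a LIM homeobox factor, was 3.84 to 22.7 times as high. Of the 6 zona incerta genes, 4 were above the other spots in every section, and Pax6, Lhx5 and Th were among them, although Lhx5 did not exceed 5.07 CPM. The summed level of the list was 3.49 to 5.63 times the other spots for reticular thalamus. For zona incerta it was only 0.990 to 2.19 times, with 135 CPM in members against 136 CPM elsewhere in middle 2. For the pallidum list it was 0.703 to 1.57 times. The pallidal factors were mixed. Nkx2-1, which specifies pallidal neurons, stood at 13.1 and 1.45 CPM in the young, 6.81 and 32.7 CPM in the middle and 2.34 and 9.46 CPM in the old sections, and Npas1 at 6.55 and 15.9 CPM in the young, 11.6 and 24.5 CPM in the middle and 7.80 and 11.8 CPM in the old sections, each above the other spots in every section. Lhx6, Etv1 and Sox6 were not, and Lhx6 stood at 2.17 to 13.8 CPM in members and 7.81 to 8.63 CPM elsewhere. A UMI of Nkx2-1 was held by 2 of 80 member spots in young 2 and by 3 of 80 in old 1, against 8 to 32 of 80 in the other 4 sections, so this pallidal marker was sparse in those 2 sections.

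Member spots were not alike within a section. A UMI of Six3 was found in 43 and 33 of the 80 young, 42 and 22 of the middle and 51 and 27 of the old members. In the other spots, whose depth was greater, it was found in 593 of 2493 spots of young 1 and in 312 of 2776 spots of old 2. Spots with Six3 held more UMIs, 16693 to 22293.8 per spot on average against 13495.9 to 18432.8 without, and their CPM are given without TMM factors. Gad1 was 1319.75 to 2580 CPM in spots with Six3 and 462 to 817 CPM in those without, higher with Six3 in 6 of 6 sections. Pvalb was 2117 to 3238 CPM against 189 to 1049 CPM, and Isl1 33.8 to 76.8 CPM against 9.35 to 19.5 CPM, also in 6 of 6 sections. Spots without Six3 had more Penk (89.4 to 158 CPM against 21.2 to 72.8 CPM), Npas1 and Nkx2-1 in 6 of 6 sections. Penk encodes the enkephalin precursor, which striatal axons carry into the globus pallidus. The glial score genes Agt and Slc6a11 were also higher without Six3 in 6 of 6 sections. The split uses a gene of the same counts, so it is given without a test.

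**Figure D2:**
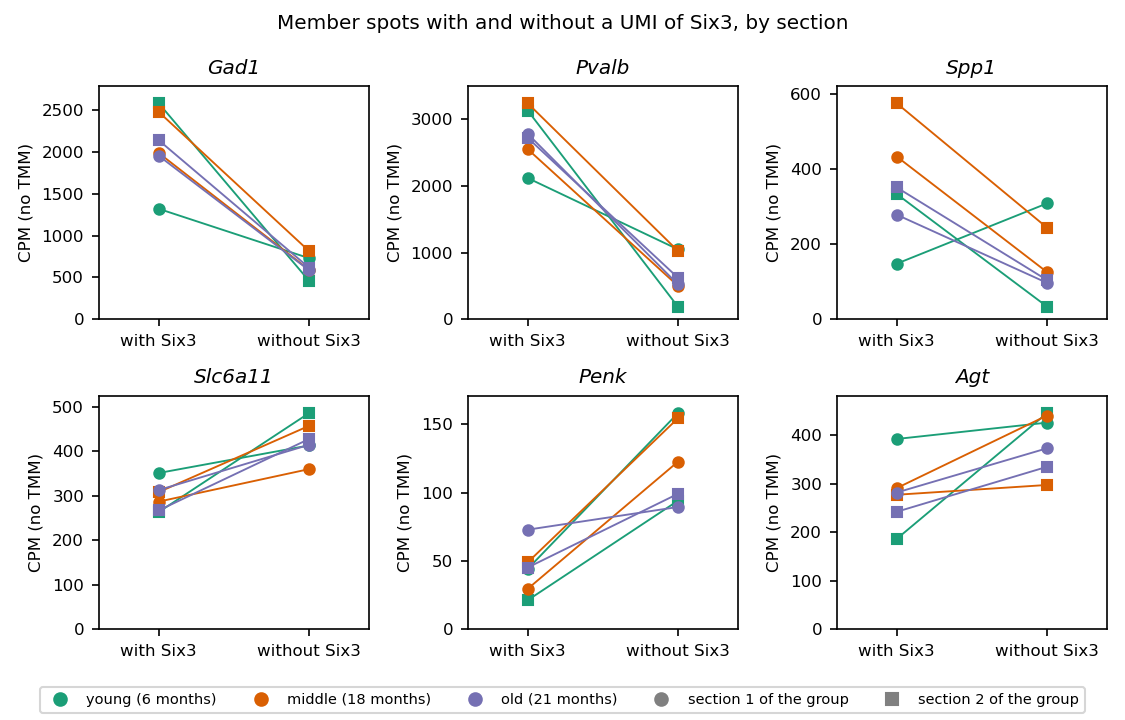
CPM without TMM factors of 6 genes in the member spots that held a UMI of Six3 and in those that held none; each line joins the 2 values of 1 section, coloured by age. Gad1 and Pvalb are higher in the spots with Six3 and Penk, Agt and Slc6a11 in those without in all 6 sections, while Spp1 is higher with Six3 in 5 of them.

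The sections differed in transcripts of hypothalamic nuclei, also between sections of 1 age. Images and spot positions were not used, so whether the nuclei in the cut differed was not tested. Pmch, the melanin-concentrating hormone precursor of lateral hypothalamus and zona incerta, stood at 2.46 and 1214 CPM in the young, 1563 and 1520.1 CPM in the middle and 2.34 and 734 CPM in the old sections in member spots. Hcrt, the orexin precursor of the same region, stood at 8.19 and 123 CPM in the young, 1613 and 339 CPM in the middle and 2.34 and 316 CPM in the old sections. Oxt, oxytocin, of the paraventricular and neighbouring nuclei, stood at 329 and 2.17 CPM in the young, 15.7 and 0 CPM in the middle and 532 and 0 CPM in the old sections. Young 1 and old 1 thus had almost no Pmch and much Oxt, while the other 4 sections had much Pmch and at most 24.5 CPM of Oxt in either set of spots. Between 43 and 56 of 80 members held a Pmch UMI in young 2, both middle sections and old 2, and 3 of 80 did in young 1 and in old 1. Young and old thus had 1 section of each kind, and both middle sections were of the kind with Pmch. This split, young 1 and old 1 against the rest, is called the section level below.

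**Figure D3:**
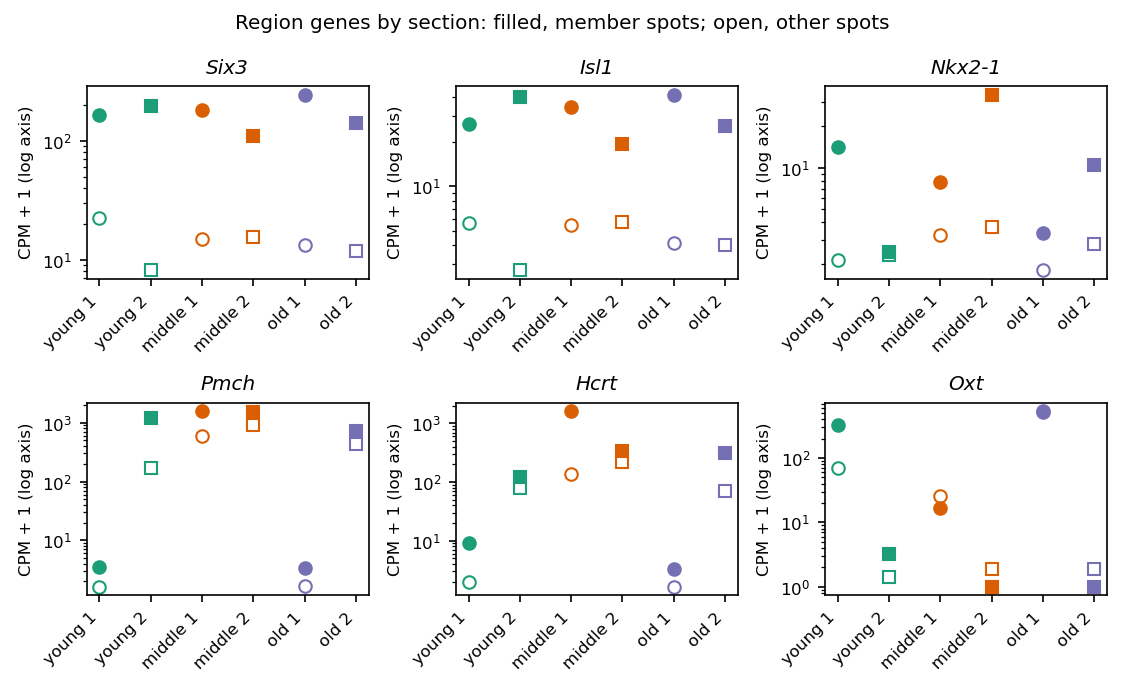
CPM + 1 (log axis) of 6 region genes by section in member spots (filled) and in the other spots (open), coloured by age. Pmch and Hcrt are near the floor in young 1 and old 1 and high in the other 4 sections, while Oxt is high in young 1 and old 1, where in old 1 the open and filled points overlap at 509 and 532 CPM.

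Glia contributed to the member spots. Of 16 astrocyte genes, 14 were above the other spots in every section, among them Itih3, a hyaluronan-associated inhibitor chain, at 2.26 to 5.11 times, and Sparc, a secreted matrix protein, at 2.39 to 3.90 times. Slc1a2, the main astrocytic glutamate transporter, was below the other spots at 0.593 to 0.624 times. All 12 myelin genes were higher, with Mbp, the myelin basic protein, at 1.47 to 1.99 times, although between 0% and 12.5% of members lay in the 10% of spots richest in myelin transcripts. The difference in the myelin share of member UMIs between ages had p = 0.867, also after adjustment (the same exact permutation test). With a smallest possible p of 0.0667 this test cannot show that the share was unchanged. Choroid plexus signal was low, with Ttr at 0.0171 to 0.0932 times the other spots.

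Between 6 and 21 months, 6 of 10744 genes tested differed in member spots by edgeR's quasi-likelihood test at an adjusted p under 0.05 (0.0558%), and 526 had an unadjusted p under 0.05. Lyz2 and Trem2, genes of microglia and macrophages, were higher (0.0186%), and Hspa1b, Hspa1a, Dnajb1 and Sgk1, genes of heat shock and glucocorticoid responses, were lower (0.0372%). In mixed tissue, fewer cells of a type and less RNA per cell cannot be told apart. Between 6 and 18 months, 10 genes differed (0.0931%), 517 at an unadjusted p under 0.05. Those higher at 18 months included Cd52, Trem2, Mpeg1, C1qc and Spp1 (0.0558%), and those lower were again Hspa1b, Hspa1a, Sgk1 and Dnajb1 (0.0372%). Both comparisons share the young sections. Called genes are named only where the groups compared did not overlap, so the lack of overlap given below for them is no further result. The old count was 39 without young 2, 17 without old 1 and 10 without middle 2, and the middle count was 19 without young 1, 5 without middle 2 and 22 without either old section.

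The inducible Hsp70 genes were lower at both 18 and 21 months. Hspa1b encodes a chaperone that is made in quantity only under stress, and it stood at 76.2 and 70.2 CPM in the young, 6.81 and 8.17 CPM in the middle and 7.02 and 5.52 CPM in the old sections. Both young sections lay far above the other 4, and the change was log2 fold change -3.52 ± 0.30 (SE), adjusted p = 2.86e-08 for old and log2 fold change -3.26 ± 0.28 (SE), adjusted p = 2.48e-08 for middle against young. Its neighbour and near-copy Hspa1a stood at 77.8 and 84.7 CPM in the young, 12.9 and 11.3 CPM in the middle and 17.9 and 13.4 CPM in the old sections, with log2 fold change -2.37 ± 0.24 (SE), adjusted p = 8.28e-07 for old against young. The Hspa1a change for middle against young was -2.73 ± 0.24 (SE). Both genes were called for old and for middle against young in all alternatives tried, 24 for Hspa1a and 23 for Hspa1b. Hspa1b had too few UMIs in aged sections to be tested with at least 10 UMIs in every sum. Within slide 1 alone, old 1 against both young sections gave -3.37 for Hspa1b and -2.18 for Hspa1a.

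Hspa1a (Ensembl ENSMUSG00000091971, chr17:34969190-34972156, minus strand) and Hspa1b (ENSMUSG00000090877, chr17:34956436-34959238, minus strand) lie side by side in GRCm38. Reads may not separate the pair, and how shared reads were counted is not given in the sources used here. Their promoters are printed because both genes fell together. Each line holds the 250 bases before the gene's start from RefSeq (GRCm38.p6, minus strand, 5′ to 3′), at chr17:34972157-34972406 for Hspa1a and chr17:34959239-34959488 for Hspa1b, with a match to the heat shock element GAANNTTC in capitals.
Hspa1a: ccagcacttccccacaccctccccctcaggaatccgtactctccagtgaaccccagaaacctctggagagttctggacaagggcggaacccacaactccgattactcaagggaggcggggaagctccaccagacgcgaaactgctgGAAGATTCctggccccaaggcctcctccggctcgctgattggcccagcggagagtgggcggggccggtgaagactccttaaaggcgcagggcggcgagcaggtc
Hspa1b: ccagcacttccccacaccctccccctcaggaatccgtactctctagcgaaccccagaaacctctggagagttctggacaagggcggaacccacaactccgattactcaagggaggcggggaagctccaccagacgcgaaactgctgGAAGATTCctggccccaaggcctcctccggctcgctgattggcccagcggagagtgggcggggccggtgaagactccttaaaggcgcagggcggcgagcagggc
The promoters differed at 3 of 250 positions, and both held 1 match, from -104 to -97 relative to the start. GAANNTTC reads the same on both strands, and it occurred in the same window of 2199 of 32851 promoters (6.69%). TTCNNGAA, with the repeats in the other orientation, was found in neither window and in 7.17% of all promoters.

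Dnajb1, the Hsp40 partner that loads substrates onto Hsp70, stood at 129 and 154 CPM in the young, 68.1 and 71.0 CPM in the middle and 74.8 and 73.3 CPM in the old sections. Both young sections lay above the other 4, with log2 fold change -0.93 ± 0.16 (SE), adjusted p = 0.00972 for old and log2 fold change -1.02 ± 0.16 (SE), adjusted p = 0.00167 for middle against young. The old call was lost with DESeq2 (adjusted p = 0.391) and within slide 1 (adjusted p = 0.0541). Of 14 heat shock genes, 3 fell and 0 rose at 21 months. The list's median log2 fold change was -0.22 at 21 and -0.17 at 18 months, beside -0.0032 and -0.0043 over all genes. Constitutive members did not pass the test, among them Hspa8, the constitutive Hsp70, at -0.041 ± 0.13 (SE), and Hspa5, the chaperone of the endoplasmic reticulum, at -0.097 ± 0.15 (SE). Hspb1, a small heat shock protein, had log2 fold change -0.96 ± 0.27 (SE), adjusted p = 0.571.

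Sgk1, a kinase induced by glucocorticoids and by osmotic stress, stood at 188 and 198 CPM in the young, 41.5 and 86.7 CPM in the middle and 56.1 and 59.9 CPM in the old sections. Young sections again lay above the other 4, with log2 fold change -1.73 ± 0.24 (SE), adjusted p = 0.0244 for old and log2 fold change -1.57 ± 0.24 (SE), adjusted p = 0.0244 for middle against young. The old call was lost when any 1 of the 4 sections compared was left out (adjusted p 0.142 to 0.29), and the middle call was lost without young 1 or young 2 (adjusted p = 0.221 and 0.452). With the section level as a block neither was called (0.155 and 0.33), nor with the score from Syt2 and Slc32a1 (0.254 and 0.377), while both were called with slide as a block. Of 9 tested genes of glucocorticoid response and NF-kB feedback, 1 fell, 0 rose, and the median was -0.72 at 21 and -0.69 at 18 months. Those not called included Nfkbia, the inhibitor of NF-kB, at -0.75 ± 0.26 (SE), and Arl4d, a small GTPase, at -0.83 ± 0.27 (SE).

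**Figure D4:**
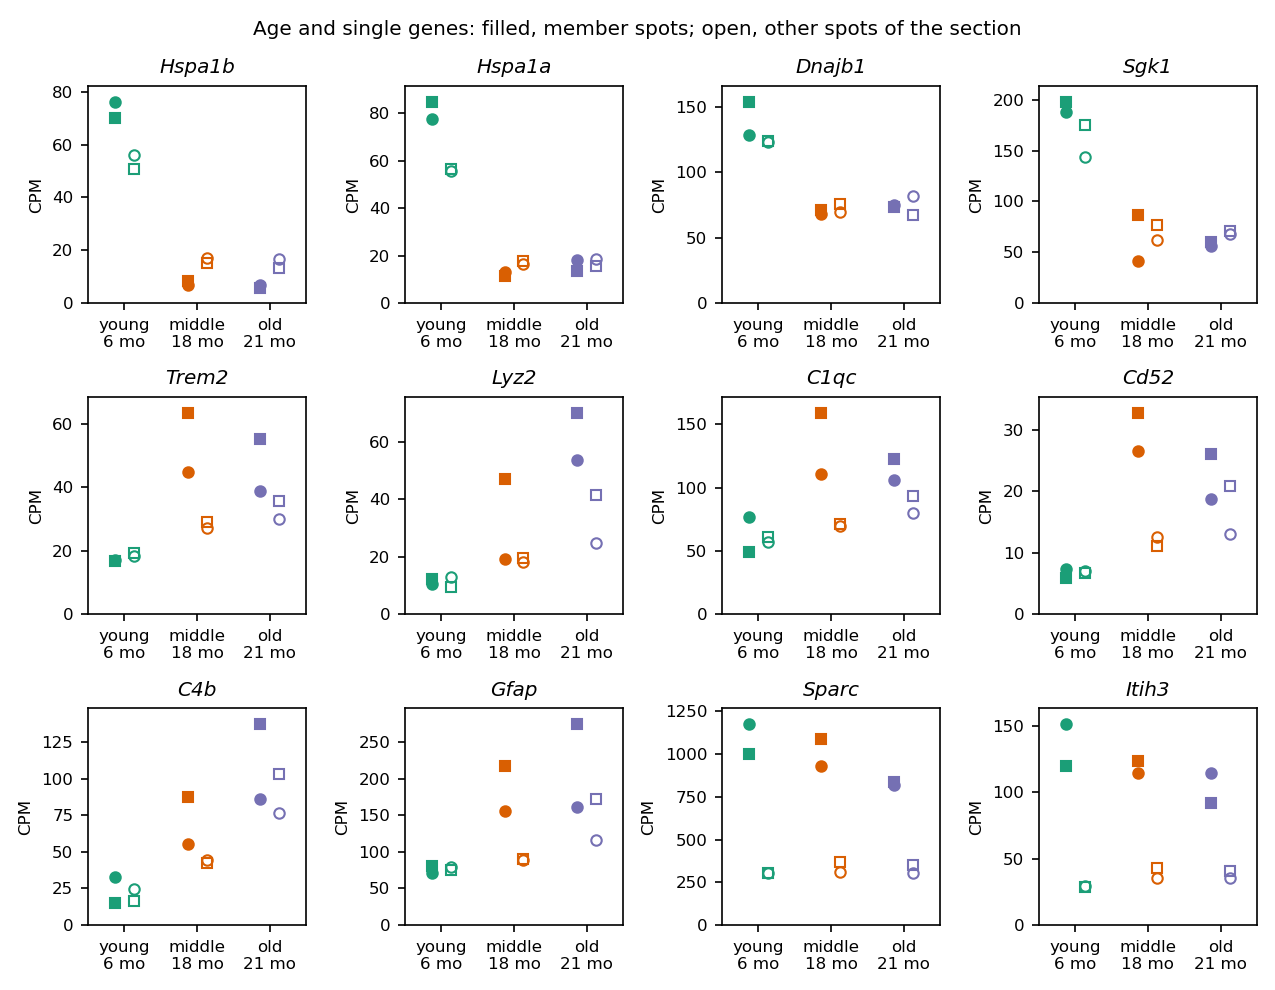
CPM of 12 genes by age in member spots (filled) and in the other spots of the same sections (open), with circles for section 1 and squares for section 2 of each age. Hspa1b, Hspa1a, Dnajb1 and Sgk1 are highest in the young sections, while the microglial and reactive glia genes are lowest there in member spots.

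Lyz2 and Trem2 at 21 months, and Trem2, Cd52, Mpeg1 and C1qc at 18 months, were among the called genes of microglia and phagocytes. Lyz2, lysozyme of macrophages and microglia, stood at 10.6 and 12.3 CPM in the young, 19.1 and 47.1 CPM in the middle and 53.8 and 70.2 CPM in the old sections, with log2 fold change 2.42 ± 0.38 (SE), adjusted p = 0.0244 for old against young. Both old sections lay above both young ones, and the call was lost without young 1 or young 2 (adjusted p = 0.435 and 0.218). The Lyz2 call was also lost with sums thinned to the smallest (adjusted p = 0.0729), with 160 members per section (0.119) and without myelin-rich members (0.0549). Trem2, the lipid-sensing receptor of microglia, stood at 17.2 and 16.7 CPM in the young, 44.9 and 63.5 CPM in the middle and 39.0 and 55.2 CPM in the old sections. The 4 aged sections did not overlap the young ones, with log2 fold change 1.48 ± 0.28 (SE), adjusted p = 0.0244 for old and log2 fold change 1.69 ± 0.26 (SE), adjusted p = 0.00172 for middle against young. The old call was lost without young 1, young 2 or old 2 (adjusted p = 0.0929, 0.0685 and 0.328) and with DESeq2 (0.457). A slide block also ended it (1.20, adjusted p = 0.305) and within slide 1 (0.453). The old call was also lost with 40 or 160 members per section (adjusted p = 0.105 and 0.304) or without myelin-rich members (0.0549). It was lost with the score from Slc32a1, Gad1 and Gad2 (0.463) and kept with that from Syt2 and Slc32a1 (0.0415). The middle call was lost without middle 2, at log2 fold change 1.41. It was also lost with 160 members (adjusted p = 0.186) and with the score from Slc32a1, Gad1 and Gad2 (0.999). It was kept with 40 members, with the score from Syt2 and Slc32a1, and with slide as a block (0.0445).

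At 18 months Cd52, a surface glycoprotein of leukocytes, stood at 26.6 and 32.7 CPM against 7.37 and 5.79 CPM in young sections, with log2 fold change 2.17 ± 0.35 (SE), adjusted p = 0.00209. Mpeg1, a pore-forming protein of phagocytes, had log2 fold change 1.60 ± 0.31 (SE), adjusted p = 0.0244. C1qc, a chain of the complement starter C1q, had log2 fold change 1.12 ± 0.21 (SE), adjusted p = 0.0395. None of these 3 genes overlapped between the young and the middle sections, as the rule for naming called genes requires. All 3 calls were lost without middle 2, at 2.01 for Cd52, 1.70 for Mpeg1 and 0.83 for C1qc. They were also lost without young 2, at 2.00, 1.17 and 0.81. All 3 calls were also lost with DESeq2 and with slide as a block (adjusted p = 0.0502 for Cd52, 0.0583 for Mpeg1 and 0.151 for C1qc). With the score from Slc32a1, Gad1 and Gad2 the values were 1.68, 0.89 and 0.56, none called. The Mpeg1 call was lost without middle 1 (0.161), and that of C1qc with the replicate block (0.077) and with the section level as a block (0.157).

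Of 18 microglial genes, 17 had a positive log2 fold change at 21 months, 2 rose and 0 fell, with a median of 0.90. At 18 months all 18 were positive, 5 rose and 0 fell, with a median of 1.07. Over all genes tested 49.4% were positive at 21 and 49.2% at 18 months. Groups of sections did not overlap for 14 of the 18 at 21 months and 16 at 18 months in the higher direction, where 15.7% and 15.6% of all genes did so (16.9% and 16.6% in the lower). Their summed level in the other spots was 683 and 715 CPM in young, 851 and 878 CPM in middle and 914 and 1076 CPM in old sections. In member spots the summed level was 880 and 626 CPM in young, 1276 and 1798 CPM in middle and 1159 and 1587 CPM in old sections. The lowest values of the list at 21 months were those of genes of resting microglia, with P2ry12, a purinergic receptor, at -0.044 ± 0.30 (SE) and Tmem119 at 0.20 ± 0.40 (SE) for old against young, neither called.

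Among the 15 leading genes without those of the score, Spp1 alone was called in an age comparison, at 18 months. It stood at 224 and 166 CPM in the young, 311 and 341 CPM in the middle and 214 and 194 CPM in the old sections, with log2 fold change 0.75 ± 0.14 (SE), adjusted p = 0.0191 for middle and log2 fold change 0.072 ± 0.14 (SE), adjusted p = 0.996 for old against young. Middle sections lay above the other 4, and the call was lost without young 2, middle 1 or middle 2 (adjusted p = 0.305, 0.064 and 0.739), with DESeq2 (0.0979), with slide as a block (0.138) and within slide 1 (0.367). The Spp1 call was also lost under every other choice of members by number or score. The value was 0.63 with 40 and 0.68 with 160 members per section. It was 0.49 with the score from Slc32a1, Gad1 and Gad2 and 0.75 with that from Syt2 and Slc32a1. Spp1 is made both by neurons of these nuclei and by activated microglia, and these sources were not separated.

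Reactive glia genes had positive values without a call. C4b, complement component 4, stood at 32.8 and 15.2 CPM in the young, 55.2 and 87.3 CPM in the middle and 85.8 and 137 CPM in the old sections, with log2 fold change 2.24 ± 0.42 (SE), adjusted p = 0.532 for old against young. Gfap, the intermediate filament of reactive astrocytes, stood at 70.4 and 81.1 CPM in the young, 155 and 217 CPM in the middle and 161 and 274 CPM in the old sections, with log2 fold change 1.52 ± 0.28 (SE), adjusted p = 0.411. Both were above the young range in all 4 aged sections, and the values of the 2 sections of an age lay far apart. Of all genes, 15.7% had old sections and 15.6% middle sections above the young range. Their side of the threshold depended on the setting: C4b was called in 11 of 24 alternatives and Gfap in 14 of 24, DESeq2 included for Gfap (adjusted p = 0.000105). Of 8 tested genes of this list all 8 had positive values at 21 months, 0 were called, and the median was 0.49. Over all genes tested 49.4% were positive, with a median of -0.0032. Apoe, the lipid carrier of astrocytes and microglia, was at 0.12 ± 0.14 (SE). Of 11 tested interferon and MHC class I genes 10 were positive, 0 were called, and the median was 0.46, with B2m, the light chain of MHC class I, at 0.55 ± 0.23 (SE). The B2m value ran from 0.17 to 0.85 when single sections were left out, and it was called without old 1 (adjusted p = 0.00644).

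**Figure D5:**
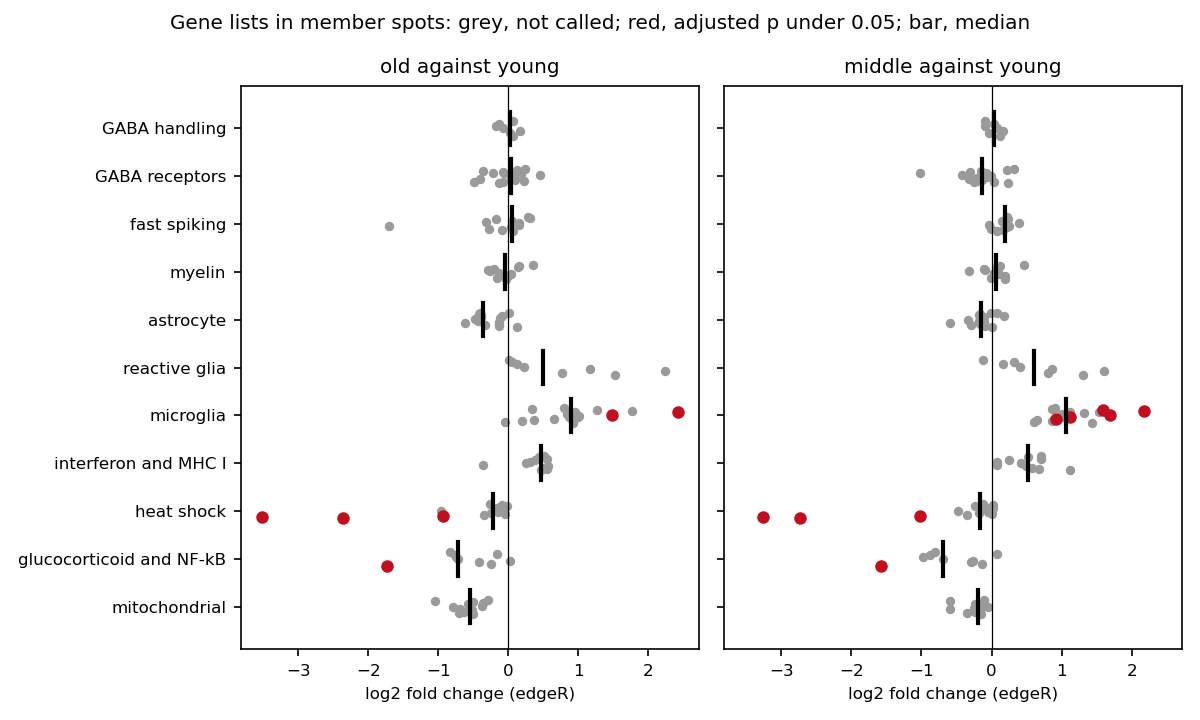
Log2 fold changes of the tested genes of 11 lists in member spots for old against young and middle against young; red points passed an adjusted p of 0.05, grey points did not, and the bar is the list's median. The microglial list lies to the right with medians of 0.90 and 1.07. The list for GABA handling is centred near 0 (0.028 and 0.041), and that for fast spiking has medians of 0.046 and 0.19.

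Genes of inhibitory transmission did not pass the test at any age. Of 7 genes for GABA handling, 2 of them in the score, 0 were called, and the median was 0.028 at 21 and 0.041 at 18 months. For old against young Gad1 was at 0.068 ± 0.14 (SE), Gad2 at 0.028 ± 0.17 (SE) and Abat, the GABA transaminase, at -0.13 ± 0.13 (SE). The direction of Gad1, Gad2 and Pvalb turned when young or old sections were left out singly, and these values do not show that the genes were unchanged. Of 17 tested GABA receptor and scaffold genes 0 were called. At 21 months their median was 0.042, with extremes at Gabra2 (-0.48 ± 0.31 (SE)) and Gabrg3 (0.45 ± 0.38 (SE)). At 18 months their median was -0.13, with 13 of the 17 negative and 4 positive, beside 5460 negative of all 10748 genes.

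Of 12 fast-spiking genes 0 were called, with a median of 0.046 at 21 months. Pvalb was at 0.061 ± 0.15 (SE) and the sodium channel Scn1a at -0.32 ± 0.17 (SE). The lowest value of the list was that of Kcna1, at 1.56 to 11.5 CPM over sections, which was not called and is named after its values were seen. Of 9 tested genes of the perineuronal net, the matrix coat of fast-spiking neurons, 0 were called and the median was -0.15, with Hapln2 at 0.53 ± 0.24 (SE) and Ncan, neurocan, at -0.49 ± 0.24 (SE). Of 24 tested genes of vesicle release, Syt2 of the score among them, 0 were called, with a median of 0.048. Only 4 of 12 angiotensin genes, Agt of the score among them, had enough UMIs to be tested, and 0 were called. Score genes could not count as calls in either list. The receptors Agtr1a and Agtr1b did not exceed 0.780 CPM in any member sum.

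Astrocyte and mitochondrial genes had mostly negative values without a call. Of 16 astrocyte genes 14 were negative at 21 months, 0 were called, and the median was -0.36. Over all 10748 genes 5434 were negative at 21 months. Gjb6, connexin 30, was at -0.61 ± 0.18 (SE) and was called without young 2 (-0.82, adjusted p = 0.0438). All 13 mitochondrially encoded genes were negative, 0 were called, and the median was -0.54, with mt-Atp8 at -1.04 ± 0.38 (SE) and mt-Nd6 at -0.79 ± 0.28 (SE). The mt-Atp8 value ran from -1.48 to -0.43 when single sections were left out, and it was called without young 2 (adjusted p = 3.57e-07), within slide 1 (0.0134) and without the filter on low counts (2e-05). Their summed level was highest in young 1, at 181606 CPM, and 118275 CPM in young 2. Immediate early genes, which report recent activity, had 0 of 9 called and a median of -0.079, with Egr1 at -0.78 ± 0.29 (SE) and Arc at -0.77 ± 0.25 (SE). The myelin list had a median of -0.041 at 21 months. The lists for myelin, oligodendrocyte precursors, endothelial and mural cells, meninges, iron, pallidum and zona incerta also had 0 genes called at 21 and at 18 months, with Aspa, a myelin-associated aminoacylase, at 0.35 ± 0.25 (SE) and Mal, a myelin proteolipid, at -0.29 ± 0.15 (SE) at 21 months.

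From 18 to 21 months 1 gene was called (0.00931%), with 423 of 10744 at an unadjusted p under 0.05. In simulated counts with no gene changed, the old against young comparison of the same fit also called a mean of 1 gene. Camk2a, the kinase of excitatory synapses, stood at 38.5 and 53.6 CPM in the young, 27.2 and 28.9 CPM in the middle and 70.2 and 62.3 CPM in the old sections, with log2 fold change 1.23 ± 0.21 (SE), adjusted p = 0.0338. Its level in the other spots was 368 to 632 CPM, and Slc17a7 in member spots ran over 14.7 to 31.1 CPM, and the part of excitatory tissue in the result was not tested. The call was lost without middle 1, middle 2 or old 1 (adjusted p = 0.712, 0.145 and 0.232) and with DESeq2, which called 0 genes (46 at an unadjusted p under 0.05). The count was 0 without middle 1 or old 1, 2 without middle 2, 3 without either young section and 4 without old 2.

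Whether the change from 6 to 21 months differed between member and other spots was tested as an interaction with section as a block, over 15842 genes. It called 7 genes (0.0442%), all with a lower change in members, and 682 had an unadjusted p under 0.05. In the heat shock group, Hspa1b had an interaction of -1.72 ± 0.35 (SE), adjusted p = 0.00239. Against other spots limited to the relay thalamus, striatum and hypothalamus sets, the Hspa1b interaction was -0.94 and not called. Its level in the other spots was 55.9 and 50.7 CPM in the young, 17.1 and 15.3 CPM in the middle and 16.7 and 13.3 CPM in the old sections. Young members stood above and aged members below the other spots of their section. Hspa1a did not pass, at -0.65 ± 0.27 (SE), nor did Dnajb1, at -0.20 ± 0.16 (SE).

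A pair of astrocyte-rich genes of the member spots, Sparc and Itih3, passed as well. The members were chosen partly on astrocyte genes, and with a score from Slc32a1, Gad1 and Gad2 the interaction was -0.16 for Sparc and -0.068 for Itih3, neither called. Sparc stood at 1176 and 1003 CPM in the young, 931 and 1091 CPM in the middle and 821 and 839.6 CPM in the old sections in members and 301 and 304 (young), 312 and 369.6 (middle), 306 and 351 (old) in the other spots. Its interaction was -0.50 ± 0.10 (SE), adjusted p = 0.00239, and the members' own change from young to old was -0.39 ± 0.13 (SE) and not called. Itih3 stood at 151 and 120.2 CPM in the young, 114 and 124 CPM in the middle and 115 and 92.2 CPM in the old sections in members and 28.7 to 43.3 CPM elsewhere, with an interaction of -0.77 ± 0.16 (SE), adjusted p = 0.00576. Agt is a gene of the score, so no interaction is given for it. In the astrocyte list 15 of 16 genes had a negative interaction, with a median of -0.31. Over the 10748 genes tested in members 5411 were negative, with a median of -0.0017.

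The others called were Oxt, Pmch, Tac2 and Gm42418. Oxt (-2.21 ± 0.17 (SE)) and Pmch (-2.06 ± 0.16 (SE)) differed widely between sections of 1 age. With the section level as a block both were still called, but that split was read from Pmch and Oxt, so it is no separate check on them. Without old 1 the Oxt value was -10.2 and not called, and the Pmch value was -1.17 without young 2 and -1.03 without old 2, neither called. Tac2, the neurokinin B precursor, stood at 23.7 and 36.2 CPM in the young, 21.8 and 37.7 CPM in the middle and 23.4 and 22.9 CPM in the old sections in members. In the other spots it stood at 25.5 and 27.8 CPM in young and 49.3 and 46.8 CPM in old sections. Gm42418, a gene model that overlaps ribosomal RNA sequence, stood at 1045 and 581 CPM in the young, 793 and 689 CPM in the middle and 332 and 570.01 CPM in the old sections. The Gm42418 interaction was -0.49 ± 0.10 (SE), and it was -0.26 without young 1 and -0.28 without old 1, neither called. The Tac2 call was lost without young 2, old 1 or old 2 (adjusted p = 0.59, 0.406 and 0.23).

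These interactions depended on how members and other spots were chosen. With the other spots limited to the relay thalamus, striatum and hypothalamus sets, Oxt alone was called. Pmch, Hspa1b, Tac2, Itih3, Sparc and Gm42418 were not called in that setting, which was added after seeing the data. The count was 0 when the score used Slc32a1, Gad1 and Gad2 or Syt2 and Slc32a1 alone (459 and 579 at an unadjusted p under 0.05). It was also 0 with DESeq2 (214) or with at least 10 UMIs in every sum (360). That filter left Oxt, Pmch and Hspa1b untested, so for them the 0 is no lost call. Leaving out old 2 or young 1 ended the calls of Sparc (adjusted p = 0.459 and 0.453) and Itih3, and leaving out either old section that of Hspa1b (0.464 and 0.218).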

How the data were processed

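Raw UMI counts per gene and spot were taken as deposited in the authors' matrices, which name Space Ranger 1.3.1 per the file headers, while the submitters' processing notes list Space Ranger 3.1 and mm10. The annotation and spot filter are not given in the sources used here, and images and spot positions were not used. The gene and barcode tables were used only as names. The 500 UMI minimum removed 2 of 16743 spots. UMIs were summed over member and other spots of each section, the replicate. Sums were fitted with edgeR 4.0.16 (TMM, filterByExpr, robust legacy quasi-likelihood, 3 residual degrees of freedom, two-sided), on 6 member sums for age and 12 sums with section as a block for the interaction. Calls needed a Benjamini-Hochberg adjusted p under 0.05 over all genes; the 4 score genes were not counted. In simulated counts 200 genes carried a log2 change of 1, of which 55.1% (age, 10748 genes) and 33.6% (interaction, 15846 genes) were recovered, and 7.16% and 7.7% of calls were false. With no gene changed, a mean of 1 and 2.5 genes were called. Section measures used exact permutation tests.

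Named genes were, per comparison and direction, up to 8 called genes of at least 10 CPM without overlap between groups, 2 examples per list by fold change, a fixed panel, and the 15 leading genes of at least 50 CPM; other list genes are named as markers or were chosen after their values were seen. A few genes that these rules name are not reported here. Members and lists were chosen with earlier results of these data known. Gene positions are from GENCODE M21, which matched 32235 of 32285 identifiers. Alternatives included DESeq2 1.42.0, RLE factors, other filters, thinning, slide, replicate and section-level blocks, other scores and numbers of members, and leaving out each section; the section-level block, the slide by compartment term and the limited set of other spots were added after seeing the data.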

Additional observations from a re-analysis of the deposited data

Results flagged for a closer look

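The change from young to old differed between member and other spots for 7 genes by the interaction term, each with a lower change in members: Oxt (-2.21), Pmch (-2.06), Hspa1b (-1.72), Tac2 (-1.23), Itih3 (-0.77), Sparc (-0.50) and Gm42418 (-0.49), all on the log2 scale. Oxt and Pmch were near 0 in some sections. With the other spots limited to the relay thalamus, striatum and hypothalamus sets, Oxt alone of these genes was called. With the sections' level as a block, which was added after seeing the data, 10 genes were called, the same 7 among them. For Oxt and Pmch this is no separate check, since the level was read from these genes. With slide by compartment as a term, also added after seeing the data, 16 genes were called, 6 of the 7 among them, and Itih3 was not (-0.61, adjusted p = 0.264).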

How the results depend on the processing

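Against 6 genes called for old against young, the count was 35 without a filter on low counts, 12 on slide 1 alone and 10 with the replicate number as a block. Against 10 for middle against young, it was 31 without a filter, 16 with the replicate block, 5 with 40 and 4 with 160 members per section, and 3 with a score from Slc32a1, Gad1 and Gad2. Against 1 for old against middle, it was 6 without a filter, 5 on slide 1, 4 with the section level as a block, 3 with only the groups compared, 2 with the replicate block, and 0 with DESeq2, thinning, the slide block, 40 or 160 members, either other score, leaving out myelin-rich members or at least 5000 UMIs per spot. Against 7 for the interaction, it was 16 with slide by compartment as a term, 11 without myelin-rich members or without myelin-rich other spots, 3 on slide 1, 2 with 40 and 1 with 160 members, 1 with the newer quasi-dispersion or with other spots limited to relay thalamus, striatum and hypothalamus, and 0 with DESeq2, at least 10 UMIs in every sum or either other score. Leaving out 1 section gave 8 to 39, 5 to 22, 0 to 4 and 6 to 37 genes in these 4 comparisons. The replicate numbers did not pair the sections (correlations of deviations -0.028 and 0.028 with young, 0.11 between middle and old), and the replicate block gave 9 genes for the interaction. The old minus young difference in myelin share, 0.00374 percentage points, ran from -0.18 to 0.188 without single sections.

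Values that turned sign were Camk2a (-0.045), Pmch (1.15), Tac2 (0.77), Abat (0.039), Gabrg3 (-0.013), Gad1 (-0.011), Gad2 (-0.051) and Pvalb (-0.096) with the score from Slc32a1, Gad1 and Gad2, Tac2 (0.62) and Gabrg3 (-0.062) with Syt2 and Slc32a1, Oxt (0.44), Abat (0.025) and Mal (0.024) with 40 members, Pvalb (-0.020) with 160, and Apoe (-0.0064) on slide 1. Without single sections Aspa ran from -0.073 to 0.89, Gad1 from -0.11 to 0.22, Gad2 from -0.22 to 0.24, Pvalb from -0.22 to 0.30 and Apoe from -0.040 to 0.31. The causes were not tested. Of the log2 fold changes under alternatives, 823 kept direction and side of the threshold, 156 lost and 33 gained a call, and 23 turned sign. With 2 sections per age and young sections on slide 1 only, age and slide cannot be told apart outside slide 1.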
